A study of Rattus norvegicus with 12 samples.

Results

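The insulin-like growth factor (IGF) axis of the liver was followed through 10 genes in rat hepatocytes exposed to triclosan and related diphenyl ethers. The genes were the ligands Igf1 and Igf2, the binding proteins Igfbp1, Igfbp2, Igfbp3 and Igfbp4, the acid-labile subunit Igfals, the receptors Ghr and Igf1r, and the growth hormone target Socs2. They were chosen by name, by matching the transcript identifier of each array probe to its RefSeq gene, which gave 18 of the 45598 probes on the array. Of these, 15 probes of 9 genes were tested, each as a feature of its own. A probe was tested when all 3 arrays of a group, or of more than 1, read it well above background. Each gene had at least 1 probe on the array. The second Igf2 probe was above background on no array. Both probes of Igf1r, the receptor through which IGF1 acts, were also dim. One of them was above background on 1 triclosan array and 0 arrays of each other group, the other on none, so no difference is given for Igf1r.

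The cells were primary hepatocytes from male Sprague Dawley rats, cryopreserved, kept in culture for 24 h and then exposed for another 24 h. The 4 groups received 30 µM triclosan, 30 µM diclosan, 30 µM 1-chloro-3-(4-chlorophenoxy) benzene (CCPB) or the vehicle DMSO, with 3 one-colour arrays from independent experiments in each group. Diclosan lacks a chlorine atom that triclosan carries and keeps its phenolic hydroxyl group. CCPB has no hydroxyl group, and it carries a chlorine atom at the meta position relative to the ether bond where the other compounds have it at the para position. The labels do not say whether the experiments used cells of different animals, so the p-values measure the spread between these experiments. The age of the rats is not given in the sources used here.

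The hepatocyte is the main source of circulating IGF1. Growth hormone binds GHR on its surface, and the kinase JAK2 and the factor STAT5B then drive transcription of Igf1, Igfals and Socs2, while SOCS2 feeds back to damp the receptor. In blood, most IGF is held in a complex of a ligand, a binding protein (mainly IGFBP3) and the acid-labile subunit. IGFBP1 and IGFBP4 form smaller complexes that limit access of IGF to its receptor, and Igfbp1 transcription is repressed by insulin through FOXO factors. In rat liver Igfbp3 transcripts are known chiefly from sinusoidal cells, and Igf2 is a fetal transcript that falls after birth.

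Values below are log2 intensities minus the 75th percentile of the array, so a probe at that percentile stands at 0. They compare groups for 1 probe and say nothing of one probe against another. The arrays lay on 2 slides. Slide 1 held all triclosan arrays, diclosan 1 and 2 and all DMSO arrays, and slide 2 held diclosan 3 and all CCPB arrays. CCPB therefore shared no slide with triclosan or DMSO, and a fit with the slide as a fixed block reaches those comparisons only through diclosan 3 against diclosan 1 and 2. Differences of the axis probes from CCPB that passed are given with that block as well. Between 51.7% and 55.6% of probes were well above background per array, and no spot was saturated. The first principal component held 39.35% of the variance between arrays. All 8 hepatocyte markers were above background, against 4 of 10 macrophage markers, 6 of 10 stellate cell and fibroblast markers, 4 of 9 endothelial markers and 4 of 8 cholangiocyte markers. In these cultures a loss of a cell type and less RNA per cell cannot be told apart.

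RefSeq promoters (250 bases before the start to 50 after, rat build GRCr8) were found for 9 of the 10 genes, all but Socs2, with 10 entries because Igf2 has 2. Socs2 also passed the test against DMSO. The promoters of the other genes that passed are printed below, since the results turn on these genes. They are Igfbp4 at chr10:84491221-84491520 (+ strand), Igfals at chr10:14403600-14403899 (+ strand), Igfbp1 at chr14:86261027-86261326 (+ strand), Ghr at chr2:54432026-54432325 (- strand) and Igf1 at chr7:24172282-24172581 (+ strand). Capitals mark a match to the insulin response letters CAAAACA.
Igfbp4: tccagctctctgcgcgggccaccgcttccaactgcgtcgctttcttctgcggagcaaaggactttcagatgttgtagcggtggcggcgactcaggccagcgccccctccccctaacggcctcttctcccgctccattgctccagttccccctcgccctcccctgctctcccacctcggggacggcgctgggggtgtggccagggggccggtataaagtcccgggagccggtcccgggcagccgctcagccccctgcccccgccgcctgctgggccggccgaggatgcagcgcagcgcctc
Igfals: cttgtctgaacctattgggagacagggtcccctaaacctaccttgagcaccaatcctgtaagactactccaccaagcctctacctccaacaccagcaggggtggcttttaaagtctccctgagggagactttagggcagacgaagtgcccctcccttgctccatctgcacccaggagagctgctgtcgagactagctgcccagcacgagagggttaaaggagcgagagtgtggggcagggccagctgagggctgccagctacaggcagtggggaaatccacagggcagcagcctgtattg
Igfbp1: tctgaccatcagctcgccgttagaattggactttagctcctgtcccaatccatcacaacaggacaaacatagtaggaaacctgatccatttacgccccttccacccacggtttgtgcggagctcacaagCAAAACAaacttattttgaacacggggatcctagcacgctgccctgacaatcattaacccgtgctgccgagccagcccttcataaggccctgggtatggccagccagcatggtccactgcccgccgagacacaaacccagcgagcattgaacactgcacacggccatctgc
Ghr: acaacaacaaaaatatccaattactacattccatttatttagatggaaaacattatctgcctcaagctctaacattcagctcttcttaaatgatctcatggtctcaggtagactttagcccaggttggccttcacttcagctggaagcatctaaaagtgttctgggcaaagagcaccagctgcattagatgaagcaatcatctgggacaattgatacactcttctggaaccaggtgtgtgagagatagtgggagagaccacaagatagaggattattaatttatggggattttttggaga
Igf1: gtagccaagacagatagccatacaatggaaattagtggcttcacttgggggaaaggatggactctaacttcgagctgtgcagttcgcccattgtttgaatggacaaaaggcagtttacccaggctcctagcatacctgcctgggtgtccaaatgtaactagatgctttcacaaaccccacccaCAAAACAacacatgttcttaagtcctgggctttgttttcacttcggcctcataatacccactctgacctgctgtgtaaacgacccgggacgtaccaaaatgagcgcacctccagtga

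Igfbp1 and Igf1 each held 1 such match, beginning 121 bases before the start in Igfbp1 and 67 bases before it in Igf1. The other promoters of the set held none. None of the 10 entries held the STAT5 letters TTCNNNGAA or the FOXO letters GTAAACA on either strand. A search for exact letters in 300 bases cannot show whether STAT5 or FOXO factors bind there, at other letters, or farther away. Over all 33469 promoters of 300 bases, CAAAACA was found in 6.28%, TTCNNNGAA in 8.87% and GTAAACA in 3.78%, both strands searched. The promoters of the 2 genes with the largest CCPB differences were unlike in base composition. That of Igfbp4 was 71% G and C with 27 CpG dinucleotides, and that of Igfals 57.7% with 4. The Ghr promoter was 40% G and C with 0 CpG. In GRCr8 gene order Igfbp1 and Igfbp3 are next to each other on chromosome 14, and Igfbp2 lies beside Igfbp5 on chromosome 9.

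At an adjusted p under 0.05 against DMSO, CCPB had passing probes in the axis, and triclosan and diclosan had none. The adjustment is made within each comparison and is milder where more probes have small p, so these counts do not compare the compounds. For Igfbp1 the unadjusted limma p was 0.000235 with triclosan and 0.000241 with CCPB, and only the difference with CCPB passed. With CCPB against DMSO, 6 of the 15 probes passed at an adjusted p under 0.05 (limma, Benjamini-Hochberg over all 24267 probes), where 27% of all probes passed. Igfbp4, Igfals, Igfbp1, a Ghr probe and Socs2 rose, against 13.2% of all probes that rose, and an Igf1 probe fell, against 13.9% that fell. A fit with the slide as a block left 2 of 15, Igfbp4 and Igfals, and 3.08% of all probes. The median difference of the 15 probes was 0.01, beside 0.00 over all probes. The ranges of CCPB and DMSO did not overlap for 11 of 15 probes, which held for 49% of all probes.

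Triclosan and diclosan each gave 0 of 15 passing probes. With triclosan 0.0701% of all probes passed, and with diclosan 0.00824%. At an unadjusted p under 0.05, limma gave 4 of 15 probes with triclosan, where 11.5% of all probes did so, and 6 of 15 with diclosan, beside 10.6%. All 3 triclosan arrays lay above all 3 DMSO arrays for 5 of 15 probes (8.59% of all probes) and below them for 1 (10.1%). All 3 diclosan arrays lay above DMSO for 5 (8.64%) and below for 0 (7.48%). The comparisons with DMSO share its 3 arrays.

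IGFBP4, a binding protein that hepatocytes secrete and that restrains IGF action, had the largest CCPB difference of the axis. The Igfbp4 probe read 4.44, 4.40 and 4.31 on the triclosan arrays, 4.43, 4.33 and 4.34 on the diclosan arrays, 4.95, 5.03 and 4.87 on the CCPB arrays, and 4.03, 4.08 and 4.01 on the DMSO arrays. All CCPB arrays lay above every other array, and all triclosan and diclosan arrays lay between them and DMSO. Igfbp4 rose 1.88-fold with CCPB against DMSO, a log2 difference of 0.91 (95% interval 0.79 to 1.02, limma adjusted p = 1.46e-05). Blocked by slide it was 0.95 (0.73 to 1.16, limma adjusted p = 0.00572). Diclosan 3, on the CCPB slide, read 4.34 and stood within the range of its group. The log2 difference of triclosan over DMSO was 0.35 (0.23 to 0.46, limma adjusted p = 0.0599), and that of diclosan was 0.33 (0.21 to 0.44, limma adjusted p = 0.099). Neither passed, although each group lay wholly above DMSO. Under 4 of 19 alternative settings triclosan over DMSO passed, with adjusted p from 0.0303 to 0.0492.

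IGFALS is the liver-made subunit that locks IGF and IGFBP3 into the long-lived complex of the blood. Its probe was dim but above background on all 12 arrays. It read -1.73, -1.66 and -1.71 with triclosan, -1.63, -1.52 and -1.75 with diclosan, -1.42, -1.26 and -1.46 with CCPB, and -1.92, -1.86 and -1.88 with DMSO. CCPB stood above all other arrays and DMSO below all others. Igfals rose 1.42-fold with CCPB, a log2 difference of 0.51 (0.37 to 0.65, limma adjusted p = 0.000543). Blocked by slide the difference was 0.68 (0.46 to 0.89, limma adjusted p = 0.00991). Here diclosan 3 was the lowest of its group, so the block enlarged the difference. Triclosan over DMSO was 0.19 (0.04 to 0.33, limma adjusted p = 0.309) and diclosan over DMSO 0.25 (0.11 to 0.39, limma adjusted p = 0.249).

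IGFBP1 is the acutely regulated binding protein of the fasting liver. The Igfbp1 probe read 5.04, 5.07 and 5.18 with triclosan, 4.98, 5.00 and 5.10 with diclosan, 5.08, 5.09 and 5.12 with CCPB, and 4.84, 4.87 and 4.77 with DMSO. The 3 compounds overlapped one another, and all 9 of their arrays lay above DMSO. Igfbp1 rose 1.21-fold with CCPB, a log2 difference of 0.27 (0.16 to 0.38, limma adjusted p = 0.00374). The blocked difference was 0.16 (-0.02 to 0.33, limma adjusted p = 0.335) and the call was lost. Triclosan over DMSO, within slide 1, was of the same size at 0.27 (0.16 to 0.38, limma adjusted p = 0.0811) but did not pass. Diclosan over DMSO was 0.21 (0.10 to 0.31, limma adjusted p = 0.238). Diclosan 3, on slide 2, read 5.10 and was the highest diclosan array.

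**Figure D1:**
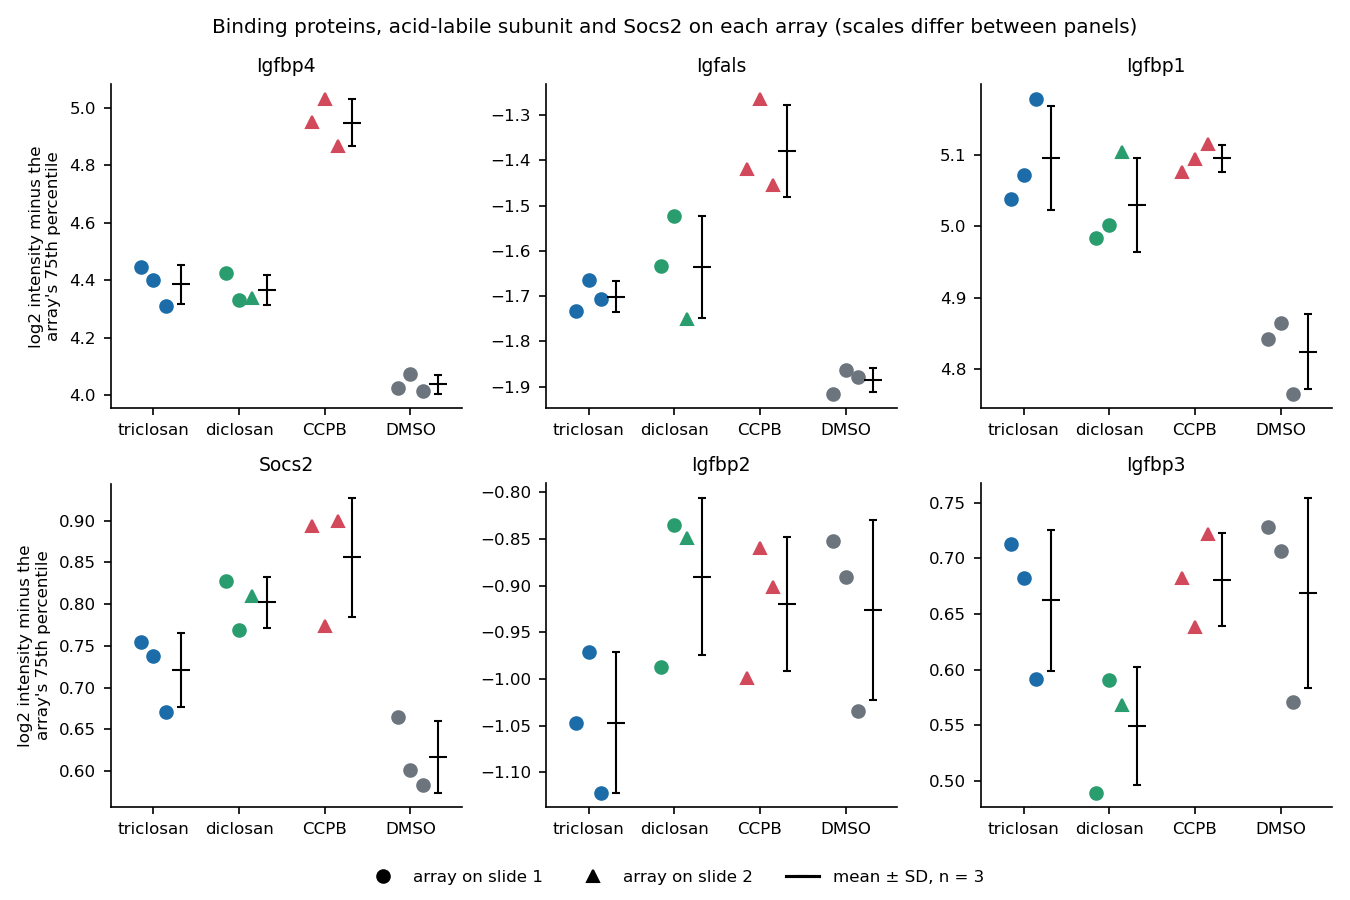
Each point is an array, on the vertical axis as log2 intensity minus the 75th percentile of that array, for the 6 genes measured by a single tested probe other than Igf2. Circles lie on slide 1 and triangles on slide 2, and bars are the mean ± SD of 3 arrays. CCPB stands above every other array for Igfbp4 and Igfals, the compounds overlap for Igfbp1, and all groups overlap DMSO for Igfbp2 and Igfbp3.

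No difference of Igfbp2 or Igfbp3 passed. IGFBP2 is a binding protein of the fetal and fasting liver. Igfbp2 averaged -1.05 ± 0.08 with triclosan, -0.89 ± 0.08 with diclosan, -0.92 ± 0.07 with CCPB and -0.93 ± 0.10 with DMSO (SD, n = 3 each). Igfbp3 averaged 0.66 ± 0.06 with triclosan, 0.55 ± 0.05 with diclosan, 0.68 ± 0.04 with CCPB and 0.67 ± 0.09 with DMSO. Every group overlapped DMSO for both genes. The CCPB over DMSO interval was -0.14 to 0.15 for Igfbp2 and -0.11 to 0.13 for Igfbp3. Igfbp3 thus differed from its neighbour Igfbp1 in its call with CCPB, but the difference between the genes was not tested.

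The differences of CCPB from DMSO did not have the same sign for all 5 Igf1 probes. No test was made of differences between these probes. The transcript they read encodes IGF1, the endocrine growth factor. Probe A_64_P052740, the brightest and printed 10 times per array, read 5.65, 5.65 and 5.67 with triclosan, 5.67, 5.67 and 5.60 with diclosan, 5.50, 5.51 and 5.56 with CCPB, and 5.67, 5.69 and 5.69 with DMSO. The 3 CCPB arrays were the lowest of the 12 and diclosan 3 the next lowest. This probe fell with CCPB, with a log2 difference of -0.16 (-0.23 to -0.08, limma adjusted p = 0.00767). The blocked difference was -0.08 (-0.20 to 0.03, limma adjusted p = 0.437). All 4 arrays of slide 2 (5.50 to 5.60) lay below all 8 arrays of slide 1 (5.65 to 5.69), and for CCPB against DMSO the group and the slide cannot be told apart on these arrays alone.

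Igf1 probe A_44_P1164271 was higher with CCPB than with DMSO without the slide block, but did not pass. It read 1.38, 1.35 and 1.38 with triclosan, 1.38, 1.33 and 1.55 with diclosan, 1.58, 1.49 and 1.58 with CCPB, and 1.41, 1.38 and 1.36 with DMSO. The high arrays were the 4 of slide 2, at 1.49 to 1.58, and the 8 arrays of slide 1 lay between 1.33 and 1.41, diclosan 1 and 2 included. CCPB over DMSO was 0.16 (0.04 to 0.28, limma adjusted p = 0.0502) without the block and -0.03 (-0.17 to 0.11, limma adjusted p = 0.84) with it. Within the diclosan group, the log2 difference of this probe, slide 2 minus slide 1, was 0.20. This difference rests on 1 diclosan array of slide 2. Whether the slide or the experiment of that array gave it was not tested.

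The other 3 Igf1 probes did not pass in any comparison. Probe A_44_P1107298 averaged 3.32 ± 0.11 with triclosan, 3.33 ± 0.07 with diclosan, 3.23 ± 0.03 with CCPB and 3.33 ± 0.07 with DMSO. Probe A_44_P1044658 averaged 2.48 ± 0.06 with triclosan, 2.49 ± 0.08 with diclosan, 2.41 ± 0.03 with CCPB and 2.54 ± 0.04 with DMSO. For both, all CCPB arrays lay below all DMSO arrays, with log2 differences of -0.10 and -0.13 and limma adjusted p of 0.277 and 0.0787. The block made both differences larger, -0.21 and -0.26, because diclosan 3 was the highest diclosan array for both. Probe A_44_P1087068 averaged -0.08 ± 0.12 with triclosan, -0.12 ± 0.09 with diclosan, -0.28 ± 0.14 with CCPB and -0.17 ± 0.04 with DMSO, and CCPB overlapped DMSO. The files do not place the probes within the transcripts, so isoforms are not assigned.

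For triclosan and diclosan against DMSO, the log2 differences of the 5 Igf1 probes lay between -0.06 and 0.09. The widest of their intervals, that of probe A_44_P1087068, ran from -0.09 to 0.27 with triclosan and from -0.12 to 0.23 with diclosan. Igf2, which encodes the fetal growth factor, was near the dim end, with intensities of 29.1 to 48.2. It averaged -3.57 ± 0.12 with triclosan, -3.71 ± 0.32 with diclosan, -3.75 ± 0.08 with CCPB and -3.42 ± 0.16 with DMSO. All CCPB arrays lay below all DMSO arrays, but the log2 difference of -0.33 did not pass (-0.65 to -0.01, limma adjusted p = 0.112). It was -0.67 in the fit blocked by slide (limma adjusted p = 0.173), and diclosan 3 was the highest of its group. The diclosan arrays alone ranged from -4.07 to -3.49.

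The growth hormone receptor was read by 3 probes. Ghr probe A_44_P1102308 read 3.93, 3.85 and 3.91 with triclosan, 3.89, 3.90 and 3.97 with diclosan, 4.12, 4.10 and 4.14 with CCPB, and 3.85, 3.87 and 3.86 with DMSO. All CCPB arrays were above the rest, and diclosan 3 on their slide was the highest of the others. This probe rose 1.20-fold with CCPB, a log2 difference of 0.26 (0.18 to 0.34, limma adjusted p = 0.000789). In the blocked fit it was 0.19 (0.06 to 0.31, limma adjusted p = 0.114).

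The other Ghr probes did not pass against DMSO. Probe A_44_P320858 averaged 1.48 ± 0.06 with triclosan, 1.48 ± 0.08 with diclosan, 1.51 ± 0.07 with CCPB and 1.40 ± 0.02 with DMSO. Its triclosan and CCPB arrays all lay above DMSO. Probe A_43_P11817 averaged -0.23 ± 0.03 with triclosan, -0.35 ± 0.11 with diclosan, -0.19 ± 0.01 with CCPB and -0.21 ± 0.07 with DMSO, and every group overlapped DMSO. Its lowest array was diclosan 3 at -0.48, on the slide of CCPB. CCPB over DMSO was 0.01 (-0.11 to 0.14, limma adjusted p = 0.86) without the block and 0.20 (0.04 to 0.35, limma adjusted p = 0.168) with it.

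**Figure D2:**
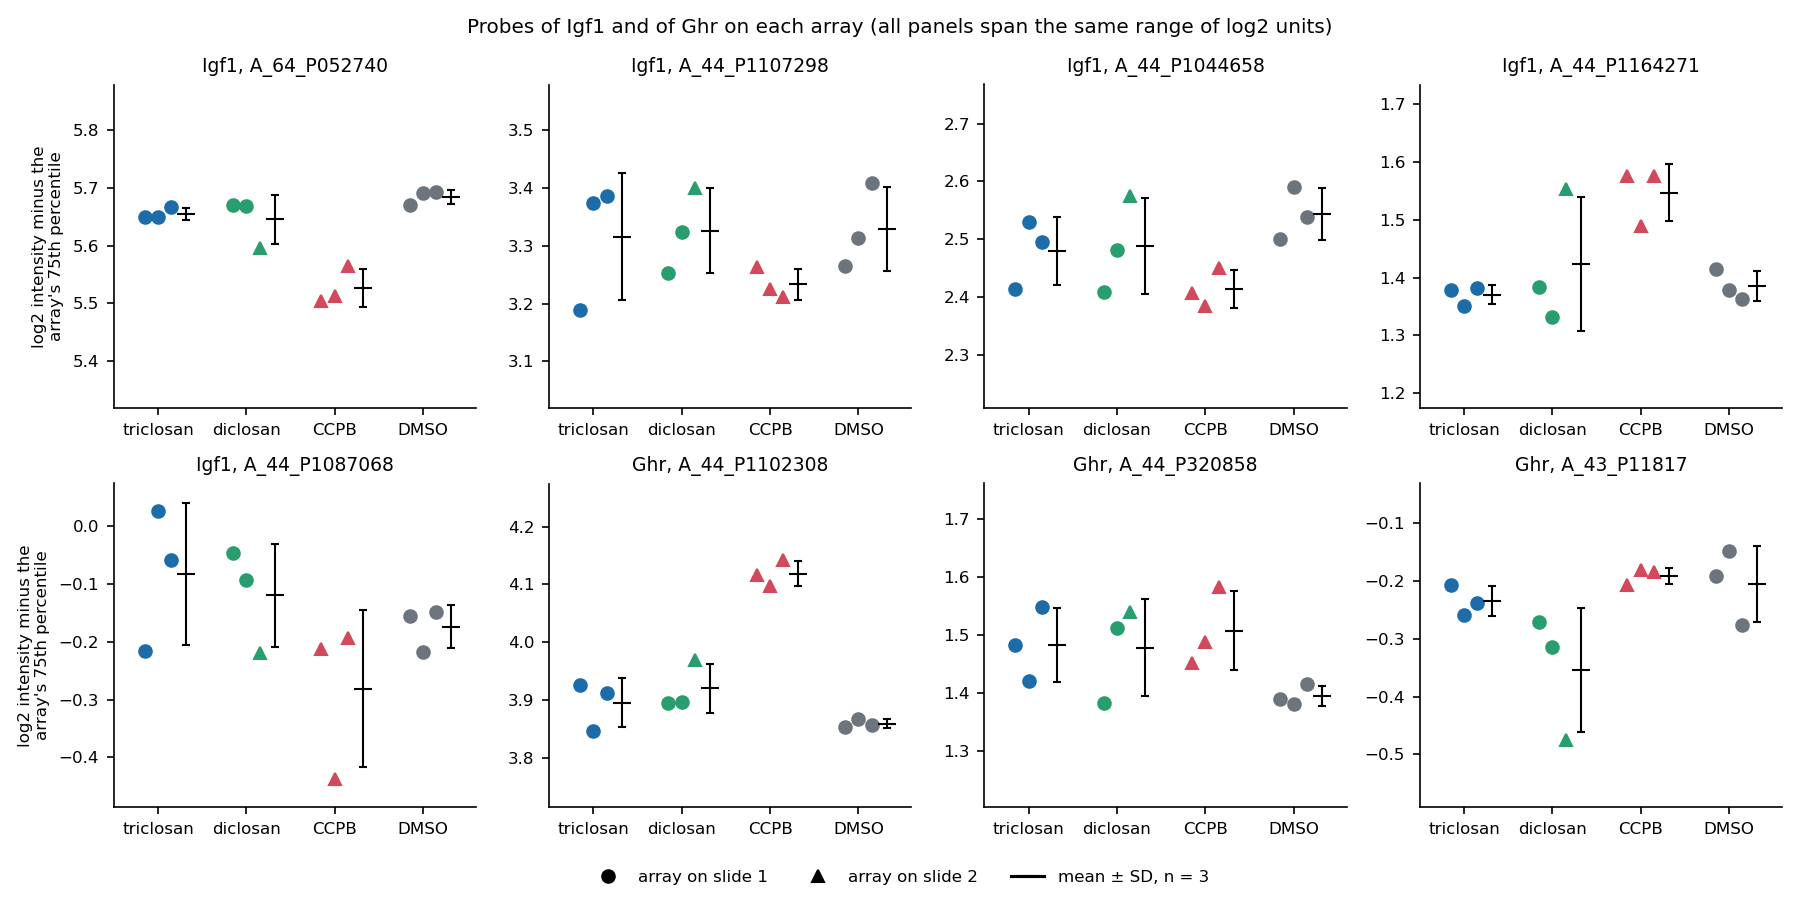
Each panel is an Igf1 or Ghr probe and each point an array, on the vertical axis as log2 intensity minus the 75th percentile of that array. Circles lie on slide 1 and triangles on slide 2, and bars are the mean ± SD of 3 arrays. For Igf1 probe A_44_P1164271 the 4 arrays of slide 2, diclosan 3 included, stand above the 8 arrays of slide 1, while for probe A_64_P052740 they stand below.

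SOCS2, the feedback inhibitor of GHR, is itself a growth hormone target. The Socs2 probe read 0.76, 0.74 and 0.67 with triclosan, 0.83, 0.77 and 0.81 with diclosan, 0.89, 0.77 and 0.90 with CCPB, and 0.67, 0.60 and 0.58 with DMSO. Each compound lay wholly above DMSO, and CCPB overlapped diclosan. Socs2 rose 1.18-fold with CCPB, a log2 difference of 0.24 (0.14 to 0.34, limma adjusted p = 0.00441). In the blocked fit it was 0.23 (0.04 to 0.41, limma adjusted p = 0.182). Diclosan over DMSO was 0.19 (0.09 to 0.28, limma adjusted p = 0.239) and triclosan over DMSO 0.10 (0.01 to 0.20, limma adjusted p = 0.416).

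**Figure D3:**
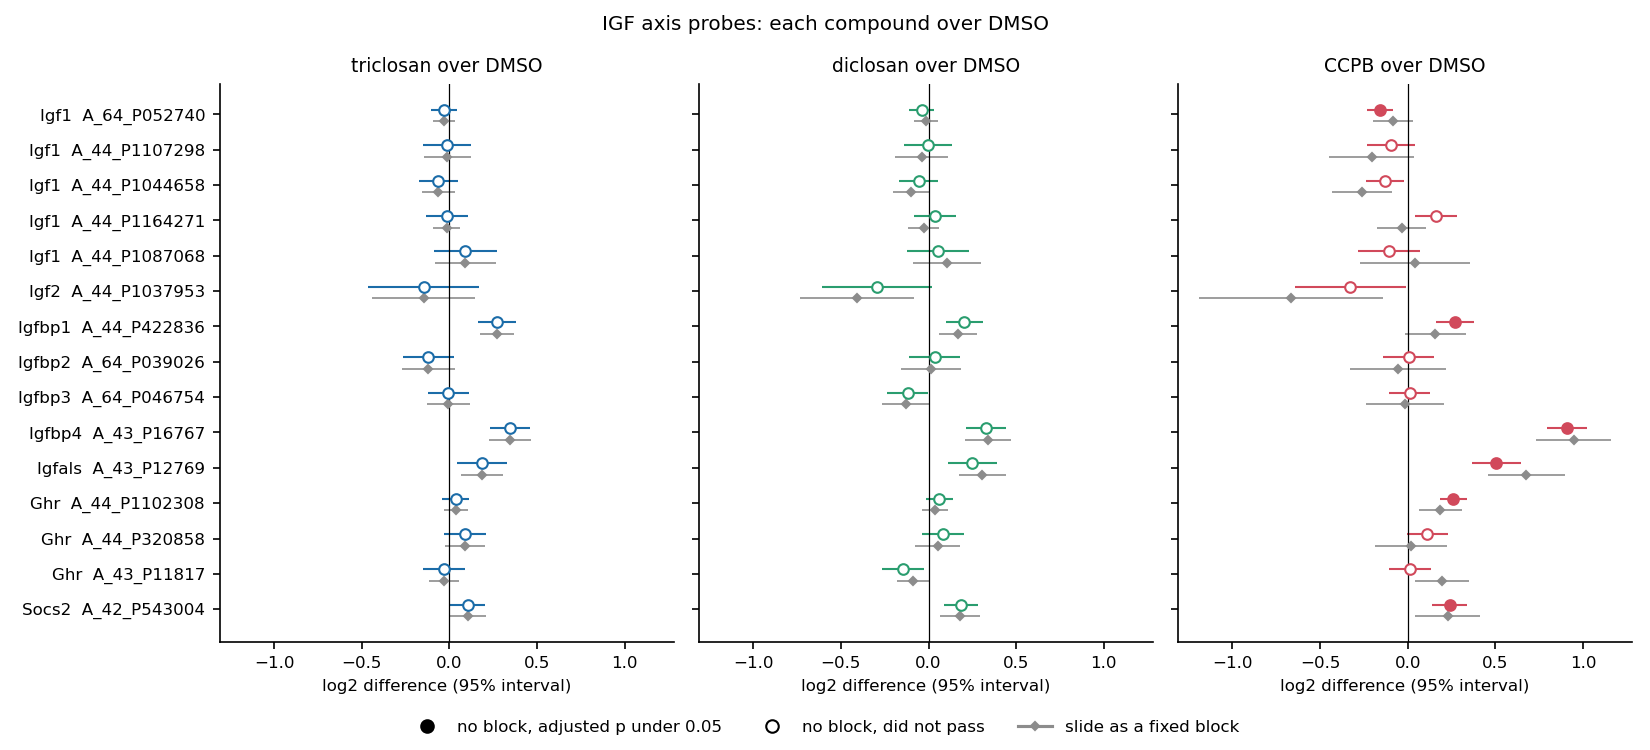
Log2 differences from DMSO of the 15 probes with their 95% intervals, 1 panel per compound. Filled circles passed at an adjusted p under 0.05, open circles did not, and grey diamonds are the same differences with the slide as a fixed block. Filled circles appear for CCPB alone, and Igfbp4 and Igfals are the probes that also passed with the block.

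The compounds were also set against each other at the shared dose and time, in 3 pairs, with p adjusted over all probes within each pair. Triclosan and diclosan, which differ by a chlorine atom, gave 0 of 15 passing probes, where 0% of all probes passed. At an unadjusted p under 0.05, limma gave 1 of 15, the Igfbp2 probe, beside 6.64% of all probes. The triclosan over diclosan intervals were -0.09 to 0.14 for Igfbp4, -0.21 to 0.08 for Igfals, -0.04 to 0.17 for Igfbp1 and -0.18 to 0.02 for Socs2. Differences within these bounds were not resolved with 3 arrays per group.

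Both hydroxylated compounds differed from CCPB in Igfbp4, Igfals and the Ghr probe. Triclosan over CCPB gave 5 of 15 passing probes, beside 19.3% of all probes. Igfbp4 was lower by a log2 difference of -0.56 (-0.68 to -0.45, limma adjusted p = 0.000256), Igfals of -0.32 (-0.46 to -0.18, limma adjusted p = 0.00901) and Ghr probe A_44_P1102308 of -0.22 (-0.30 to -0.15, limma adjusted p = 0.00307). Igf1 probe A_64_P052740 was higher by 0.13 (limma adjusted p = 0.0258), and Igf1 probe A_44_P1164271 was lower by -0.18 (limma adjusted p = 0.0466). Without any 1 of triclosan 1, 2 or 3 or CCPB 1, the count was 3 because both Igf1 probes were lost. Between 9.82% and 13.5% of all probes passed in those fits. With the slide block 1 of 15 passed, Igfbp4 at -0.60 (limma adjusted p = 0.033), beside 1.16% of all probes. Igfals then stood at -0.49 (limma adjusted p = 0.0519), the Ghr probe at -0.15 (limma adjusted p = 0.245), and the Igf1 probes at 0.05 and 0.019 (limma adjusted p of 0.678 and 0.926).

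Diclosan over CCPB is the pair with arrays of both compounds on slide 2. It gave 4 of 15 passing probes, beside 13.5% of all probes. Igfbp4 was lower by -0.58 (-0.70 to -0.47, limma adjusted p = 0.000157), Igfals by -0.26 (-0.40 to -0.11, limma adjusted p = 0.0254) and Ghr probe A_44_P1102308 by -0.20 (-0.28 to -0.12, limma adjusted p = 0.00541). Igf1 probe A_64_P052740 was higher by 0.12 (limma adjusted p = 0.0407). Without diclosan 1 or without CCPB 2 the count was 2, because Igfals and the Igf1 probe were lost. Of all probes, 7.6% and 8.16% passed in those fits. The blocked fit left 3 of 15 passing, beside 4.62% of all probes. They were Igfbp4 at -0.61 (limma adjusted p = 0.00423), Igfals at -0.37 (limma adjusted p = 0.0296) and Ghr probe A_43_P11817 at -0.28 (limma adjusted p = 0.0213). Ghr probe A_44_P1102308 was at -0.15 (limma adjusted p = 0.0942) and the Igf1 probe at 0.07 (limma adjusted p = 0.398). Because diclosan alone lay on both slides, each blocked difference of this pair is by construction diclosan 3 minus the mean of the 3 CCPB arrays, and so rests on 1 diclosan array. A fit of slide 2 alone compares these same arrays, with 1 of diclosan, so its p-values are not given.

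No Igfbp1 difference between compounds passed. Triclosan over CCPB was 0.00 (-0.11 to 0.11) and diclosan over CCPB -0.07 (-0.17 to 0.04), and differences within these bounds were not resolved. For Socs2 the intervals were -0.23 to -0.04 for triclosan over CCPB (limma adjusted p = 0.0582) and -0.15 to 0.04 for diclosan over CCPB.

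**Figure D4:**
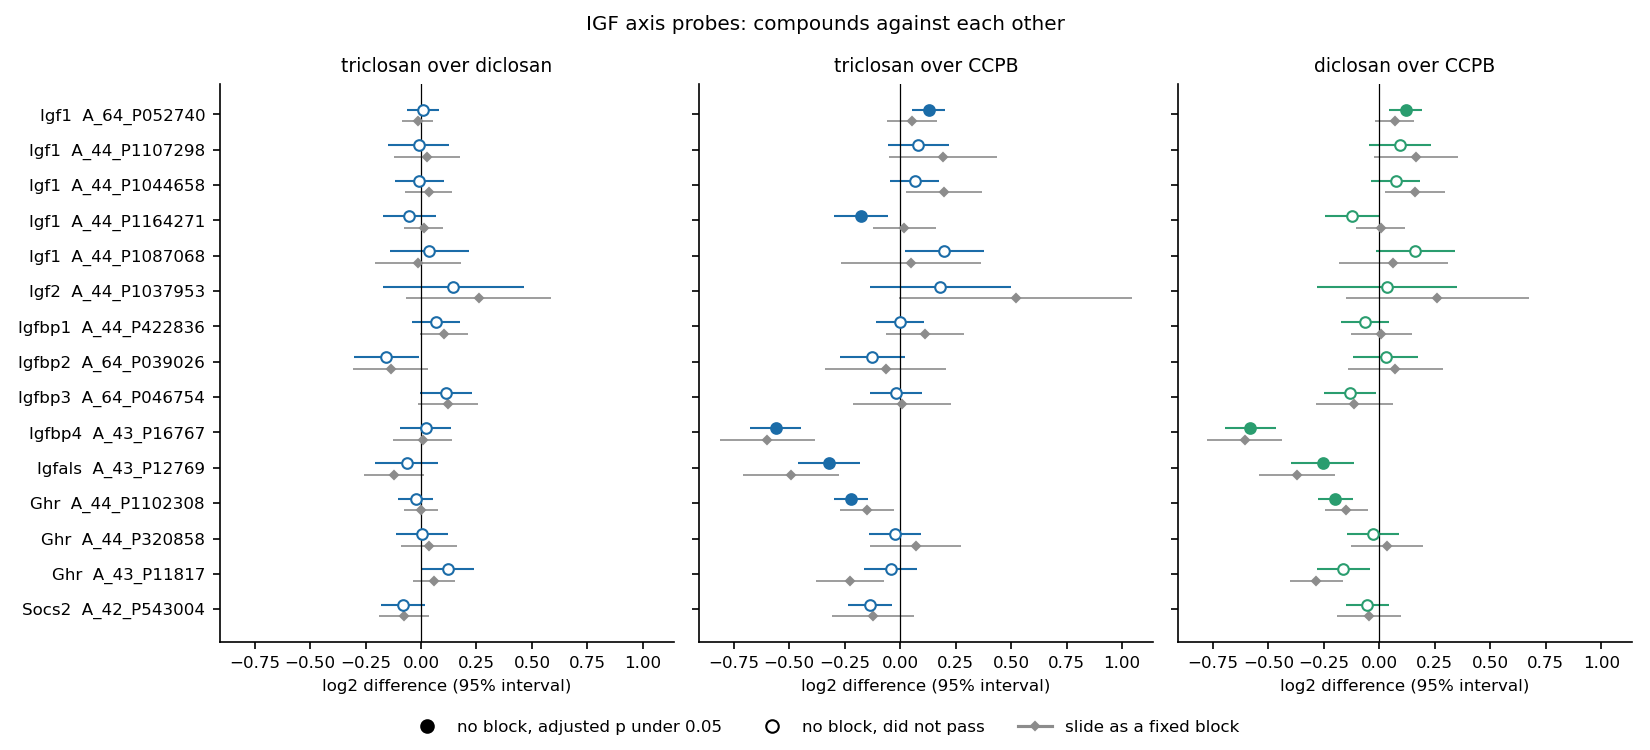
Log2 differences between compounds of the 15 probes with 95% intervals, triclosan over diclosan at the left, triclosan over CCPB in the middle and diclosan over CCPB at the right. Filled circles passed, open circles did not, and grey diamonds have the slide as a fixed block. Igfbp4 stands at -0.56 and -0.58 against CCPB and at 0.02 between triclosan and diclosan.

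Among array profiles of named genes outside the axis, that of Igfbp4 over the 12 arrays was most like those of Bhmt2 (Pearson r = 0.979), Cyp2c6v1 (0.978) and Car5a (0.977). Over the 8 arrays of slide 1, with no CCPB, the same 3 genes correlated with Igfbp4 at 0.93, 0.928 and 0.883. Igfals was most like Agxt (0.96), Lrp11 (0.959) and Aox1 (0.938), and over slide 1 these were 0.929, 0.935 and 0.873. Igfbp1 was most like Rab10 (0.965), Ppm1k (0.956) and Thoc2 (0.92), with 0.974, 0.968 and 0.923 over slide 1. For the bright Igf1 probe and Ghr probe A_44_P1102308 some of these correlations were lower within slide 1. With that Igf1 probe, Ccdc50, Cd81 and Lig1 stood at 0.975, 0.969 and 0.968 over 12 arrays and at 0.466, 0.486 and 0.645 over slide 1. With the Ghr probe, Glyat, Sar1b and Ces1e stood at 0.985, 0.981 and 0.98 over 12 arrays and at 0.688, 0.896 and 0.692 over slide 1. Within the axis, Igfbp4 and Igfals correlated at 0.937 over 12 arrays and at 0.38 after each group's mean was removed. The arrays share groups and slides, so these are descriptions.

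The IGF and insulin pathway list, of genes outside the axis, held 23 genes, 14 of them tested. With CCPB against DMSO, 1 rose and 4 fell, where 13.2% of all probes rose and 13.9% fell. Igf2r, which clears IGF2, stood at -0.22, Grb14, an adaptor that inhibits the insulin receptor, at -0.17, Akt1, a kinase below the insulin receptor, at -0.19 and the protease gene Htra1 at -0.16. The gene that rose was Mtor, a growth kinase, at 0.24. Of 12 tested growth hormone signalling genes, 0 rose and 2 fell, Jak2 at -0.25 and Sh2b1, an adaptor of JAK2, at -0.24. None of either list passed with the slide block, where 3.08% of all probes did, and none passed with triclosan or diclosan. The blocked differences were -0.10 for Igf2r, -0.11 for Grb14, -0.08 for Akt1, -0.04 for Htra1, 0.06 for Mtor, -0.38 for Jak2 and -0.18 for Sh2b1. At their medians the 2 lists stood at -0.01 and -0.01 with CCPB, beside 0.00 over all probes.

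Growth hormone also sets the sex pattern of rat liver. Of 13 tested genes under that control, 1 rose and 3 fell with CCPB, beside the same 27% of all probes that passed in either direction, and the median was -0.06. The male-typical steroid enzyme gene Hsd3b5 stood at 0.63 (limma adjusted p = 0.00031), while Onecut1, a liver transcription factor, stood at -0.43, Bcl6, a repressor, at -0.34 and the male-specific Cyp2c11 at -0.23. With the slide block 0 passed. Hsd3b5 was then at 0.55 (limma adjusted p = 0.0585), Onecut1 at -0.18, Bcl6 at -0.12 and Cyp2c11 at -0.13.

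Of 11 tested FOXO1 and fasting genes, 4 rose and 1 fell with CCPB, where 13.2% of all probes rose and 13.9% fell. Pdk4, the kinase that shuts pyruvate dehydrogenase, stood at 1.11 (limma adjusted p = 7.3e-05), Cpt1a, the entry step of fatty acid oxidation, at 0.44 and Pck1, a gluconeogenic enzyme, at 0.74. With the slide block 2 of 11 passed, where 3.08% of all probes did. They were Pdk4 at 1.22 and Cpt1a at 0.38, and Pck1 stood at 0.83 (limma adjusted p = 0.273). The list's median was 0.21 with CCPB, beside 0.00 over all probes, 0.06 with triclosan and -0.02 with diclosan.

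Of 9 stress genes tied to Igfbp1, 2 rose and 4 fell with CCPB, where 27% of all probes passed, and the median was -0.19. Gdf15, a stress cytokine, stood at 0.92 and Hmox1, a heme enzyme, at 0.41. Among those that fell, Chac1, which breaks down glutathione, stood at -0.32 and Sesn2, a stress-induced regulator of growth signalling, at -0.49. With the slide block Gdf15 at 0.88 and Hmox1 at 0.43 passed, and all 4 falls were lost, Chac1 standing at -0.18 and Sesn2 at -0.25. With triclosan Gdf15 also rose, at 0.83 (limma adjusted p = 0.0177).

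Of 10 liver transcription factors, 4 rose and 0 fell with CCPB, beside the same 27%, and the median was 0.15. Nr0b2, a corepressor that bile acid signalling induces, stood at 2.25, and Hnf4a and Nr1h4 at 0.15 and 0.15. With the slide block 2 of 10 passed, where 3.08% of all probes did. They were Nr0b2 at 2.50 (limma adjusted p = 0.00425) and Cebpb at 0.39 (limma adjusted p = 0.0357), which without the block stood at 0.17 (limma adjusted p = 0.0737). Hnf4a at 0.13 and Nr1h4 at 0.18 did not pass with the block. Nr0b2 rose as well with triclosan at 2.09 (limma adjusted p = 0.000349) and with diclosan at 1.80 (limma adjusted p = 0.00149).

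**Figure D5:**
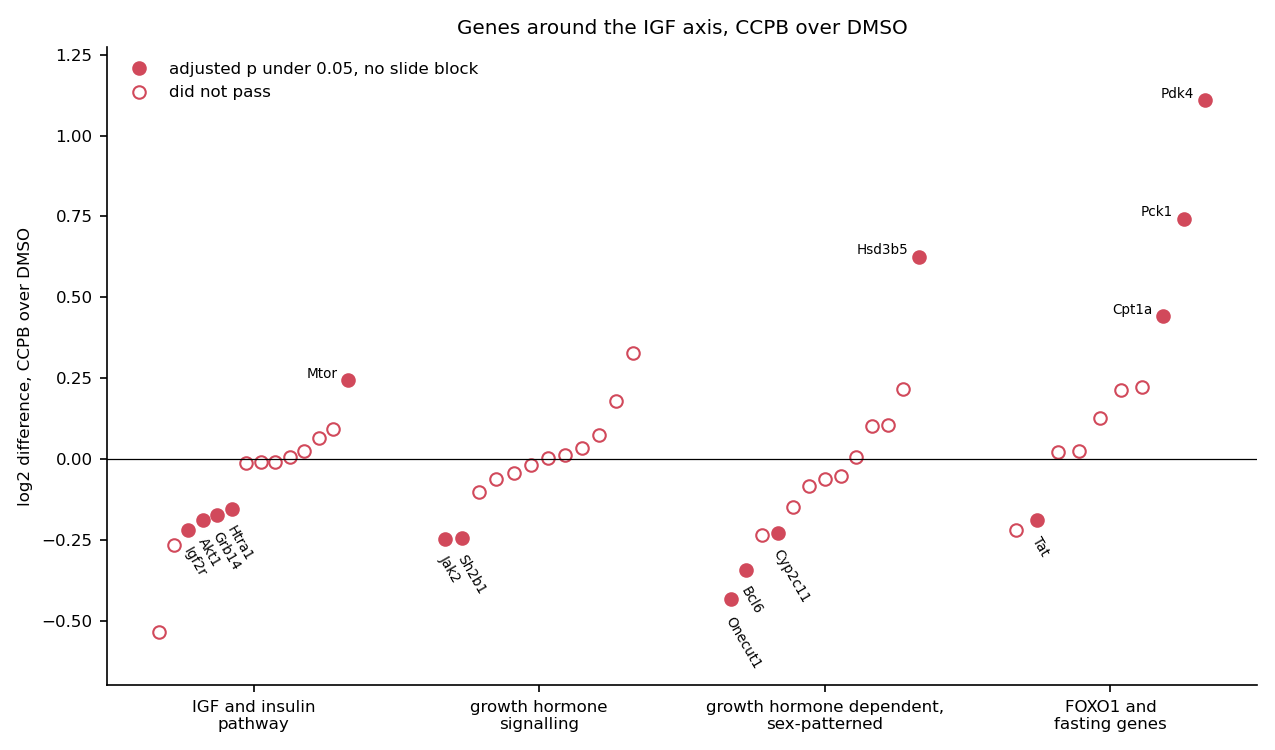
Log2 differences of CCPB over DMSO for genes of 4 lists around the axis, sorted within each list. Filled points passed without the slide block and are named, and open points did not. Not every tested gene of the lists is drawn. In the fasting list the named genes above zero run from Cpt1a at 0.44 to Pdk4 at 1.11.

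The summed levels of endothelial and cholangiocyte markers were higher on all CCPB arrays than on all DMSO arrays. None of their single markers passed with the slide block. The ranges of these groups, which shared no slide, were also apart for 49% of all single probes. Endothelial sums with diclosan, 8.06 to 9.70, overlapped those with CCPB, and cholangiocyte sums with diclosan, 2.87 to 3.13, lay below them. The summed linear level of the 4 tested endothelial markers, on a scale where the 75th percentile of the array is 1, was 9.48 to 9.83 with CCPB and 8.15 to 8.60 with DMSO. For the 4 tested cholangiocyte markers it was 3.52 to 3.62 with CCPB and 2.88 to 3.06 with DMSO. The 8 hepatocyte markers summed to 2197 to 2251 with CCPB and 2162 to 2257 with DMSO, and the ranges overlapped. Stellate and macrophage sums overlapped as well, at 2.02 to 2.10 with CCPB and 1.93 to 2.57 with DMSO, and at 0.93 to 1.05 with CCPB and 0.72 to 1.00 with DMSO. Over all probes, 13.2% rose and 13.9% fell with CCPB against DMSO, and 3.08% passed with the slide block. Of the endothelial markers 1 of 4 rose, Vwf at 0.21. Of the cholangiocyte markers 2 of 4 rose, Epcam at 0.33 and Sox9 at 0.28, and 1 fell. None of these passed with the slide block. Of the stellate markers 1 of 6 rose, Acta2 at 0.42, and with the block it was lost at 0.29 while Rgs5 passed at 1.00. Of the 8 hepatocyte markers 2 rose, and of the 4 macrophage markers 0, with none of either passing with the block. The endothelial markers Pecam1, Stab2 and Lyve1 and the cholangiocyte marker Krt19 did not pass the background filter. The part of other cell types in the results was not tested.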

How the data were processed

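Transcripts were measured on 12 one-colour Agilent arrays. Per the file headers, the scanner files that the authors deposited give an intensity for each spot, on a linear scale, corrected for background and spatial trend in Agilent's Feature Extraction software (version 10.7.1.1) and not scaled between arrays. A second table deposited by the authors gives a linear signal for each probe, with the 75th percentile of an array near 1 (0.9995 to 1) and medians of 0.048 to 0.055. It correlated with the scanner values at 0.99994 or more and served as an alternative. How its probe values were combined is not given in the sources used here.

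Non-uniform and population-outlier spots were left out, spots of a probe averaged as log2, and each array's 75th percentile subtracted. Probes that all 3 arrays of some group read well above background were kept (24267 of 45598, 53.22%), and 19 probes that lost every spot on an array were dropped. Whether the background correction compressed dim probes was not tested. Values of dim probes can spread widely, as for the untested Igf2 probe, with an SD of 1.10 over the CCPB arrays. Symbols were matched by transcript identifier to RefSeq (GRCr8) for 21229 probes. All 12 arrays were fitted together by group with limma 3.58.1 in R 4.3.3 (package data.table, version 1.17.8), two-sided, with Benjamini-Hochberg adjustment over all kept probes of a comparison and 95% intervals, which are unadjusted. The fit was tested on simulated arrays with independent noise and no slide effect. That test therefore cannot speak for CCPB against DMSO, which shared no slide. The median interval reached 0.147 log2 units to each side, and the number of arrays limits the precision. Figures were drawn with python 3.11.15.

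Alternatives were the slide as a fixed or random block, each slide alone, a replicate block, other scalings, filters and background corrections, the authors' table, and leaving out each array. The members and gene lists were chosen with earlier results of these data known. Every member probe is reported. A listed gene is represented by its brightest kept probe, up to 4 of a list are named by smallest p (some that met this rule are not reported here), Mtor, Cebpb, the marker genes and the names in the plot of list genes were added after their values were seen, and likeness names the 3 genes of highest correlation.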

Additional observations from a re-analysis of the deposited data

How the results depend on the processing

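The counts of calls that moved were those against CCPB and that of triclosan over DMSO. Each count is given with the share of all probes that passed under the same setting in brackets. CCPB over DMSO gave 6 of 15 probes (27%) and 6 to 6 when an array was left out (17.3% to 18.8%). It gave 2 under a fixed slide block (3.08%) and 2 with the replicate block and the slide together (1.31%). Triclosan over CCPB gave 5 (19.3%), and 3 to 4 with an array left out (9.61% to 13.5%). It gave 1 under a fixed slide block (1.16%) and 3 under a random one with a correlation of 0.2957 (4.04%). The count was 0 with the replicate block and the slide (0.0288%), 1 with median centring (10.6%) and 3 with no filter on dim probes (3.43%). Diclosan over CCPB gave 4 (13.5%), and 2 to 5 with an array left out (7.6% to 25.3%). It gave 2 with the replicate block and the slide (2.39%) and 1 with median centring (6.14%). With no filter it gave 2 (3.18%), and with only the compared groups fitted 1 (5.71%). Slide 2 alone holds 1 diclosan array, so no count is given for it. Triclosan over DMSO gave 0 (0.0701%), but 1, Igfbp4, with the slide as a random block (0.243%) or the replicate block (0.12%). It also gave 1, again Igfbp4, with normexp on the median signal (0.0701%) or only probes above background on all arrays (0.0883%). Igf1 probe A_44_P1164271, triclosan over CCPB, turned from -0.18 to 0.019 with the slide block and to 0.010 with the replicate block and the slide.

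Igfbp4 and Igfals passed for CCPB over DMSO under all 18 settings run, with log2 differences of 0.86 to 0.95 and 0.40 to 0.68. Settings without the slide in the fit cannot tell CCPB from its slide, and those with it rest on diclosan 3. Deviations of same-numbered arrays from their group means correlated weakly (r from -0.167 to 0.113, over 0.1 in 1 of 18 pairs). These correlations cannot show whether same-numbered arrays came from the same experiment. The replicate block gave 7 calls for CCPB over DMSO, 3 for diclosan over CCPB and 5 for triclosan over CCPB. Of all probes, 25.9%, 13.3% and 17.4% passed in these comparisons. The planned normexp on the mean signal was not run, and the median signal was used instead, a choice made after seeing the data, as was keeping population-outlier spots. Where the cause of a change is not given by the setting itself, the cause was not tested. The Igf2 probe, the dimmest of the 15, had the widest interval.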
